A study of Mus musculus with 18 samples.

Results

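Genes of the lysosome and of autophagy were followed in mouse bone marrow-derived basophils, across genotype and stimulus. The set is a named list of 43 genes, among 19057 genes that had a probe on the array. A gene was tested when at least 1 of its probes was above background, with a detection p under 0.05, on 3 or more of the 18 arrays; 40 of the 43 met this, among 9973 genes in all. Ctsl, encoding cathepsin L, Galc, encoding galactocerebrosidase, and Tfeb, encoding a transcription factor of lysosomal genes, had 1, 4 and 2 probes, none of which met it, so no level is given for them. By role the 40 tested genes were 7 membrane and lipid transfer proteins, 9 cathepsins and other peptidases, 8 glycan and lipid hydrolases with their activators, 5 parts of the proton pump, 1 transcription factor and 10 autophagy genes.

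Total RNA of cultured basophils was hybridised to Illumina bead arrays in 6 groups of 3 arrays. The groups were ST2KO basophils activated through IgE for 4 h, ST2KO basophils stimulated with IL-33 for 4 h, unstimulated ST2KO basophils, and wild-type (WT) basophils in the same 3 states, all of the C57BL/6J strain at an age of 4 to 6 weeks. ST2, encoded by Il1rl1, is the receptor subunit that binds IL-33. The array had 0 probes named Il1rl1, so the loss of ST2 could not be checked at the RNA level, and the labels give neither the amount of IL-33, the way IgE was engaged, nor whether the 3 arrays of a group came from separate cultures. The p-values therefore measure the spread between these arrays, which may be technical.

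Lysosomes break down material delivered by endocytosis and by autophagy, with acid hydrolases that work at the low pH kept by a vacuolar proton pump. Autophagy begins with a kinase complex around ULK1, grows a double membrane marked with phosphatidylinositol 3-phosphate, to which WIPI proteins bind, and closes it with ubiquitin-like proteins of the LC3 and GABARAP families. Many of these genes are controlled by the transcription factors TFEB and TFE3, which bind an E-box with defined flanks known as the CLEAR element. In basophils and mast cells the secretory granules are lysosome-related organelles, and CD63 of their membrane appears on the surface when they are released.

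Promoter sequences came from RefSeq (GRCm38.p6), 250 bases before to 50 after a gene's start, and 35 of the 43 genes had one. The core of the CLEAR element, TCACGTGA, which reads the same on both strands, was found in 7 of the 35 promoters (20%), against 1.12% of 27025 genes with such a promoter. The shorter E-box CACGTG, which lies within that core, was found in 14 of the 35 (40%), against 8.09% of all. The 7 promoters with the core are shown because their genes hold the letters that TFEB and TFE3 are known to read; each line gives the core in capitals with 20 bases on either side. Ctsa and Gla hold 2 copies of the core each.
Cln3, chr7:126583331-126583378, minus strand: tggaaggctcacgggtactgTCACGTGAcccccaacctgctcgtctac
Mcoln1, chr8:3500453-3500500, plus strand: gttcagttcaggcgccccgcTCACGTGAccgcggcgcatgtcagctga
Ctsa, chr2:164833740-164833804, plus strand: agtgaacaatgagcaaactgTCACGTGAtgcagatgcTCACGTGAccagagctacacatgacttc
Ctsd, chr7:142387899-142387946, minus strand: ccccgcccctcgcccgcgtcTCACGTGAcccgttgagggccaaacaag
Gla, chrX:134601173-134601253, minus strand: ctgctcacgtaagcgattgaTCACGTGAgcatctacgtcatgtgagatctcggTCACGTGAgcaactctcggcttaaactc
Atp6v0d1, chr8:105566041-105566088, minus strand: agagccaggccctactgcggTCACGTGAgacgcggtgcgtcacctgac
Atp6v1a, chr16:44139364-44139411, minus strand: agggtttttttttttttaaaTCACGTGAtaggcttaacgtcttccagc

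On the arrays, between 32.2% and 34.8% of 45281 probes were above background, and replicate arrays correlated at 0.981 to 0.994 over the tested genes. All 12 listed basophil markers, among them Mcpt8, Fcer1a and Cpa3, were measured, and their mean log2 intensity ranged from 10.91 to 11.26 over the 18 arrays. Of the 8 lymphocyte markers 0 were measured, and of the 7 eosinophil markers 1. The WT arrays numbered 2 stood apart in interferon response genes, whose mean log2 intensity was 7.85 on the IgE array of that number (5.75 and 6.28 on the others of its group), 9.27 on the IL-33 array (7.57 and 6.93) and 9.26 on the unstimulated array (7.35 and 7.87). Array 1 of ST2KO IL-33 lay above the others of its group as well, at 7.87 for these genes (6.77 and 6.32) and at 7.39 for the neutrophil markers (6.15 and 6.44). The WT arrays numbered 2 were also highest of their groups in Prg2, the measured eosinophil marker. It measured 9.42 after IgE (6.91 and 8.23 on the others), 10.04 after IL-33 (7.62 and 8.22) and 9.46 unstimulated (7.09 and 8.29). Their macrophage marker mean was highest too, at 7.06 (6.39 and 6.75), 7.03 (6.78 and 6.57) and 6.91 (6.50 and 6.52) in the same order. What set these arrays apart was not tested. All values below are log2 of background-corrected, quantile-normalised intensity, differences are on that log2 scale with their standard error (SE), and each gene is represented by its brightest probe. A difference was called when the adjusted p, from limma with Benjamini-Hochberg adjustment over the 9973 genes, was under 0.05.

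IgE activation changed 20 of the 40 genes in ST2KO basophils (11 higher, 9 lower) and 19 of 40 in WT basophils (8 higher, 11 lower). Among all genes tested, 49.2% were called in ST2KO (22.8% higher, 26.4% lower) and 47% in WT (22.7% higher, 24.3% lower), so the shares of the set, 50% and 47.5%, were near those of all genes. Of the 10 autophagy genes, 6 fell in each genotype. Cathepsin Z had the highest rise of the 40 genes. Differences between roles were not tested. The IgE and unstimulated arrays did not overlap for 24 of the 40 genes in ST2KO (60.6% of all genes) and for 18 of 40 in WT (50.9% of all genes). The median change over the set was 0.03 in ST2KO and -0.02 in WT, against -0.02 in both over all genes. The arrays measure RNA of a whole culture, so fewer cells of a type and less RNA per cell cannot be told apart. Of the 12 basophil markers, 3 were called higher and 2 lower after IgE in ST2KO, and 3 higher and 3 lower in WT. Gata2, Cebpa and Runx1 rose and Ms4a2 and Il3ra fell in both genotypes, and Cd200r3 was called lower in WT alone. Mast cell markers moved with IgE as well: of the 7 measured of 11 listed, 4 were called higher in each genotype, and their summed intensity was 18525 to 20205 on the ST2KO IgE arrays, against 12951 to 15148 unstimulated, and 18129 to 19798 on the WT IgE arrays, against 13346 to 16487 unstimulated. Mcpt1 and Mcpt2 were not above background. Of the neutrophil markers, 10 measured of 13 listed, 1 was called higher and 1 lower in ST2KO, and 0 higher and 1 lower in WT. Their summed intensity was 4113 to 4169 on the ST2KO IgE arrays, against 4776 to 5207 unstimulated, and 4198 to 4645 on the WT IgE arrays, against 5506 to 8865 unstimulated, while Ly6g, Elane and Prtn3 were not above background. The part of these cell types in the changes was not tested.

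**Figure D1:**
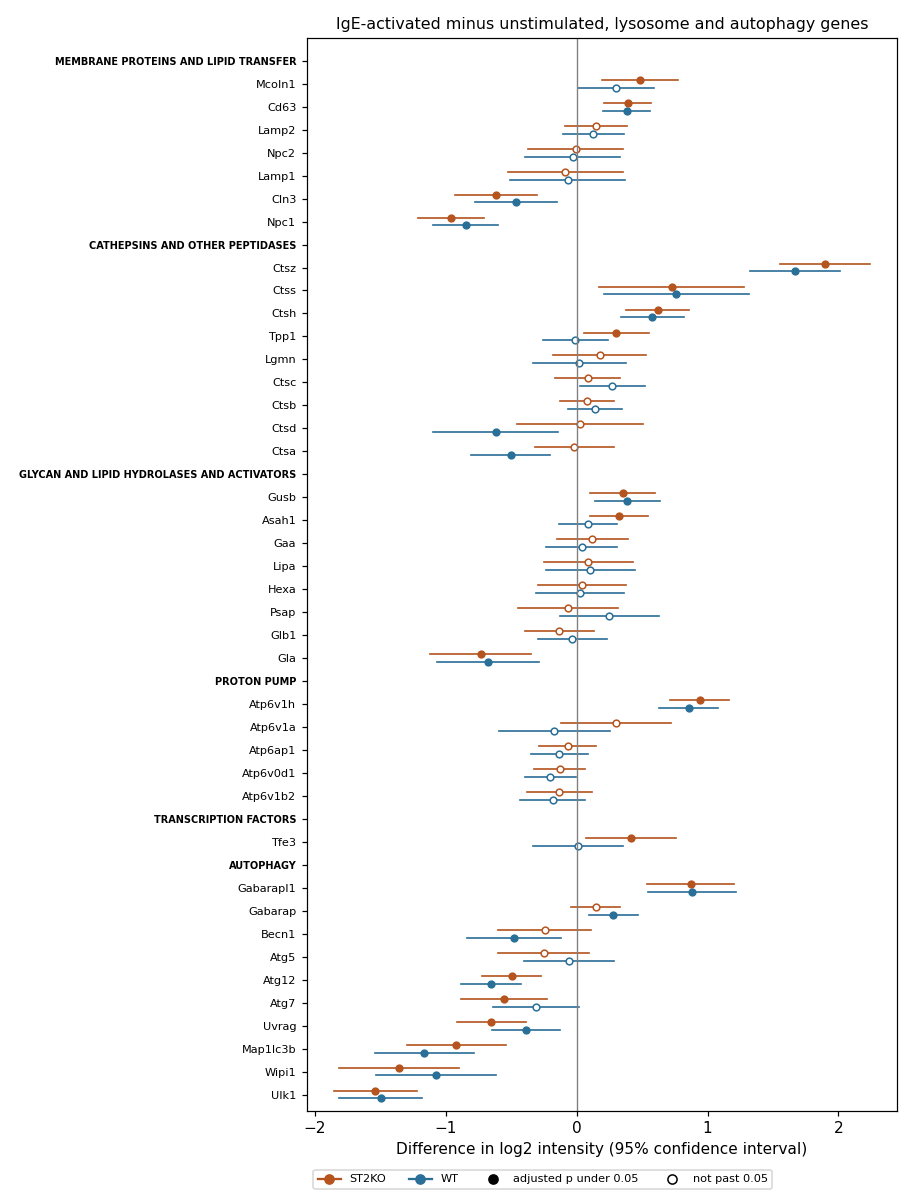
IgE-activated minus unstimulated log2 intensity (x axis, with 95% confidence intervals) of the 40 tested genes, grouped by role (y axis), in ST2KO (orange, upper of each pair) and WT basophils (blue, lower), 3 arrays a group. Filled points passed an adjusted p of 0.05; Ctsz lies farthest to the right, at 1.89 in ST2KO and 1.67 in WT, and Ulk1 farthest to the left, at -1.54 and -1.50.

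Among the 10 autophagy genes, Ulk1 and Wipi1 had the largest falls in ST2KO, and Ulk1 and Map1lc3b in WT. Ulk1, the kinase that starts autophagosome formation, measured 6.46, 6.65 and 6.34 on the ST2KO IgE arrays, against 8.0, 8.07 and 8.0 without stimulation. The WT arrays gave 6.26, 6.98 and 6.60 after IgE, against 8.19, 8.19 and 7.95 unstimulated. Every IgE array lay below every unstimulated array of its genotype. The fall was 2.90-fold in ST2KO (log2 difference -1.54, SE 0.15, adjusted p = 2.27e-07) and 2.82-fold in WT (-1.50, SE 0.15, adjusted p = 3.61e-07), and both Ulk1 probes fell. Wipi1, which binds phosphatidylinositol 3-phosphate on the forming membrane, measured 5.86, 5.65 and 5.48 on the ST2KO IgE arrays, against 7.11, 6.77 and 7.18 unstimulated. The WT arrays measured 5.99, 6.00 and 5.29 after IgE, against 7.30, 6.36 and 6.85 unstimulated. The groups did not overlap in either genotype, although the unstimulated WT arrays spread over almost 1 log2 unit. Wipi1 fell 2.56-fold in ST2KO (-1.36, SE 0.22, adjusted p = 5.7e-05) and 2.11-fold in WT (-1.08, SE 0.22, adjusted p = 0.000556), with all 3 of its probes lower.

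Among the genes of membrane conjugation, Map1lc3b and Atg12 fell in both genotypes and Gabarapl1 rose in both. Map1lc3b, encoding the lipid-conjugated protein LC3B, measured 8.16, 8.36 and 8.54 on the ST2KO IgE arrays, against 9.18, 8.95 and 9.69 unstimulated. In WT it measured 8.20, 8.14 and 8.47 after IgE, against 9.49, 9.32 and 9.49 unstimulated. All IgE arrays lay below all unstimulated ones, a difference of -0.92 in ST2KO (SE 0.18, adjusted p = 0.000376) and -1.16 in WT (SE 0.18, adjusted p = 4.14e-05). Atg12, a ubiquitin-like protein joined to ATG5, measured 9.69, 9.62 and 9.62 after IgE in ST2KO, against 10.12, 10.26 and 10.04 unstimulated, and 9.61, 9.55 and 9.51 after IgE in WT, against 10.29, 10.37 and 9.98 unstimulated. It was lower by -0.50 in ST2KO (SE 0.11, adjusted p = 0.000962) and -0.66 in WT (SE 0.11, adjusted p = 7.89e-05), again without overlap. Gabarapl1, a GABARAP family member, went the other way. It measured 11.40, 11.39 and 11.16 after IgE in ST2KO, against 10.38, 10.43 and 10.53 unstimulated, and 11.12, 10.79 and 11.18 after IgE in WT, against 10.23, 9.97 and 10.25 unstimulated. Every IgE array was above every unstimulated array, 1.83-fold in ST2KO (log2 difference 0.87, SE 0.16, adjusted p = 0.000199) and 1.84-fold in WT (0.88, SE 0.16, adjusted p = 0.000185).

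Of the remaining autophagy genes, Uvrag, a subunit of the lipid kinase complex that contains Beclin 1, measured 7.72, 7.96 and 7.97 after IgE in ST2KO, against 8.47, 8.60 and 8.54 unstimulated, a difference of -0.65 (SE 0.12, adjusted p = 0.000298). In WT it measured 7.98, 8.29 and 7.93 after IgE, against 8.63, 8.44 and 8.28 unstimulated, so that 1 array of each group crossed, with a difference of -0.39 (SE 0.12, adjusted p = 0.0163). The WT call for Uvrag was lost without WT unstimulated array 1 (adjusted p = 0.0851), without WT IgE array 1 (0.059) or without WT IgE array 3 (0.0766). Atg7, the activating enzyme of both conjugation systems, measured 6.98, 7.27 and 7.08 after IgE in ST2KO, against 7.62, 7.73 and 7.65 unstimulated, a difference of -0.56 (SE 0.15, adjusted p = 0.00634), while in WT its difference was -0.31 (SE 0.15, adjusted p = 0.11). Becn1, encoding Beclin 1, measured 6.88, 6.55 and 6.57 after IgE in WT, against 6.96, 7.24 and 7.23 unstimulated, a difference of -0.48 (SE 0.17, adjusted p = 0.0283), and -0.25 in ST2KO (adjusted p = 0.253). The Becn1 call was lost without WT unstimulated array 2 (adjusted p = 0.0856), WT unstimulated array 3 (0.0833), WT IgE array 2 (0.0863) or WT IgE array 3 (0.0898). Gabarap measured 12.53, 12.54 and 12.60 after IgE in WT, against 12.26, 12.30 and 12.28 unstimulated, and was called higher there by 0.28 (SE 0.09, adjusted p = 0.0154). That call was lost without WT IgE array 3 (adjusted p = 0.054), and the ST2KO difference was 0.15 (adjusted p = 0.192). Atg5 passed in neither genotype, with -0.25 in ST2KO and -0.06 in WT. Its other probe was called lower in ST2KO (-0.39, adjusted p = 0.0104 in limma over all probes) but not in WT (-0.13). In all, 7 of the 10 autophagy genes were called in ST2KO (1 higher, 6 lower, median -0.53) and 8 of the 10 in WT (2 higher, 6 lower, median -0.43), against 49.2% and 47% of all genes.

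**Figure D2:**
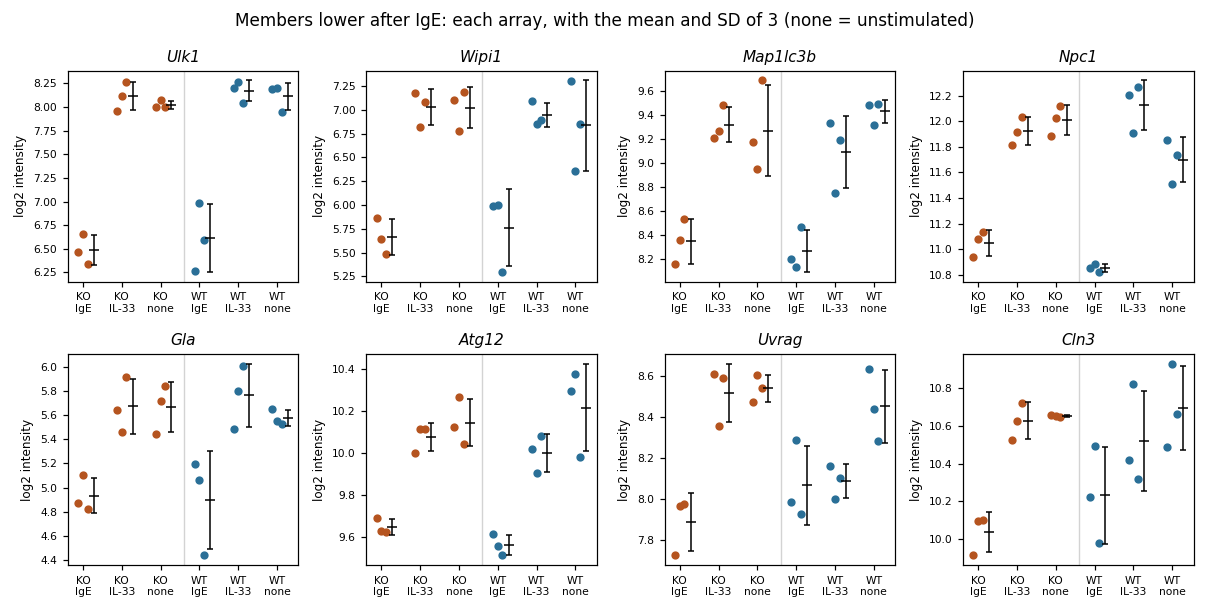
Log2 intensity (y axes) of 8 genes that fell after IgE, 1 point per array, with the mean and SD of the 3 arrays beside them, in the 6 groups (x axes: KO, ST2KO; none, unstimulated). The IgE arrays of Ulk1, Wipi1, Map1lc3b, Npc1, Gla and Atg12 sit below all other arrays of their genotype. For Uvrag in WT, IgE array 2 lies above unstimulated array 3 and above every IL-33 array. The WT means of Uvrag after IgE and after IL-33 were close, at 8.06 and 8.09. For Cln3 in WT, IgE array 2 lies above unstimulated array 1 and above IL-33 arrays 1 and 3.

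The cathepsins held the largest rise of the set. Ctsz, the carboxypeptidase cathepsin Z, measured 11.23, 11.33 and 11.23 after IgE in ST2KO, against 9.32, 9.28 and 9.51 unstimulated. In WT it measured 11.01, 10.86 and 11.39 after IgE, against 9.70, 9.20 and 9.37 unstimulated. The groups were more than 1 log2 unit apart in both genotypes, 3.72-fold in ST2KO (log2 difference 1.89, SE 0.16, adjusted p = 5.34e-08) and 3.18-fold in WT (1.67, SE 0.16, adjusted p = 2.6e-07), and both Ctsz probes rose. Ctsh, the aminopeptidase cathepsin H, measured 8.09, 8.36 and 8.36 after IgE in ST2KO, against 7.78, 7.65 and 7.53 unstimulated, and 8.35, 8.44 and 8.53 after IgE in WT, against 7.77, 7.94 and 7.88 unstimulated. Its IgE arrays lay above its unstimulated arrays in both genotypes, by 0.62 in ST2KO (SE 0.11, adjusted p = 0.000238) and 0.58 in WT (SE 0.11, adjusted p = 0.000477).

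Ctss, the endopeptidase cathepsin S that trims the invariant chain in antigen-presenting cells, was more variable. It measured 7.50, 7.68 and 7.24 after IgE in ST2KO, against 6.80, 6.58 and 6.87 unstimulated, a difference of 0.72 (SE 0.26, adjusted p = 0.03). In WT it measured 7.34, 7.99 and 8.34 after IgE, against 6.81, 7.89 and 6.69 unstimulated, a difference of 0.76 (SE 0.26, adjusted p = 0.0244). The unstimulated WT array 2 lay among the IgE arrays. The Ctss call in ST2KO was lost without unstimulated array 1 (adjusted p = 0.055), unstimulated array 2 (0.0967), IgE array 1 (0.069) or IgE array 2 (0.105), and in WT without unstimulated array 1 (0.105), unstimulated array 3 (0.13), IgE array 2 (0.0655) or IgE array 3 (0.134). Markers of dendritic cells, which are rich in cathepsin S, moved with IgE too. Of the 7 measured of 12 listed, 5 were called higher in each genotype. The summed intensity of the 7 was 2036 to 2143 on the ST2KO IgE arrays, against 656 to 790 unstimulated. It was 2742 to 2954 on the WT IgE arrays, against 740 to 966 unstimulated. Flt3, Xcr1 and Clec9a were not above background, and Cd209a and Ciita were not measured either. The macrophage markers, 13 measured of 17 listed, were called higher for 0 and lower for 1 in ST2KO, and higher for 3 and lower for 1 in WT. Over all genes, 22.8% were higher and 26.4% lower in ST2KO, and 22.7% and 24.3% in WT. The summed intensity of the macrophage markers was 10377 to 15171 on the ST2KO IgE arrays, against 15345 to 16503 unstimulated. On the WT IgE arrays it was 15160 to 25758, against 17844 to 25630 unstimulated. The part of either cell type in these changes was not tested.

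The other peptidases were called in 1 genotype or in none. Tpp1, a tripeptidyl peptidase, measured 8.06, 8.29 and 8.33 after IgE in ST2KO, against 7.93, 7.89 and 7.96 unstimulated, a difference of 0.30 (SE 0.12, adjusted p = 0.0428), and -0.01 in WT (adjusted p = 0.95). This call was lost without any 1 of 6 arrays: ST2KO unstimulated arrays 1, 2 and 3 (adjusted p = 0.0825, 0.105 and 0.0727), ST2KO IgE arrays 2 and 3 (0.123 and 0.141) and WT IL-33 array 1 (0.052). Ctsd, the aspartic protease cathepsin D, measured 7.53, 7.87 and 8.14 after IgE in WT, against 8.73, 8.16 and 8.52 unstimulated, a difference of -0.62 (SE 0.23, adjusted p = 0.033), and 0.03 in ST2KO (adjusted p = 0.936). The WT groups all but touched, at 8.14 and 8.16, and the Ctsd call was lost without WT unstimulated array 1 (adjusted p = 0.128) or 3 (0.0797), or without WT IgE array 1 (0.146) or 2 (0.0594). Ctsa, a carboxypeptidase that also protects partner glycosidases, measured 7.82, 8.17 and 7.82 after IgE in WT, against 8.28, 8.68 and 8.37 unstimulated, a difference of -0.51 (SE 0.14, adjusted p = 0.00784), and -0.02 in ST2KO (adjusted p = 0.934). Its 3 probes disagreed in WT, from -0.51 to 0.53, and the mean of the probes was not called (adjusted p = 0.681). Ctsb, Ctsc and Lgmn, encoding cathepsins B and C and asparaginyl endopeptidase, were not called, with 0.08, 0.08 and 0.17 in ST2KO and 0.14, 0.27 and 0.02 in WT. Over the 9 peptidases, 4 were higher and 0 lower in ST2KO, and 3 were higher and 2 lower in WT, so that 44.4% and 55.6% were called, against 49.2% and 47% of all genes.

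**Figure D3:**
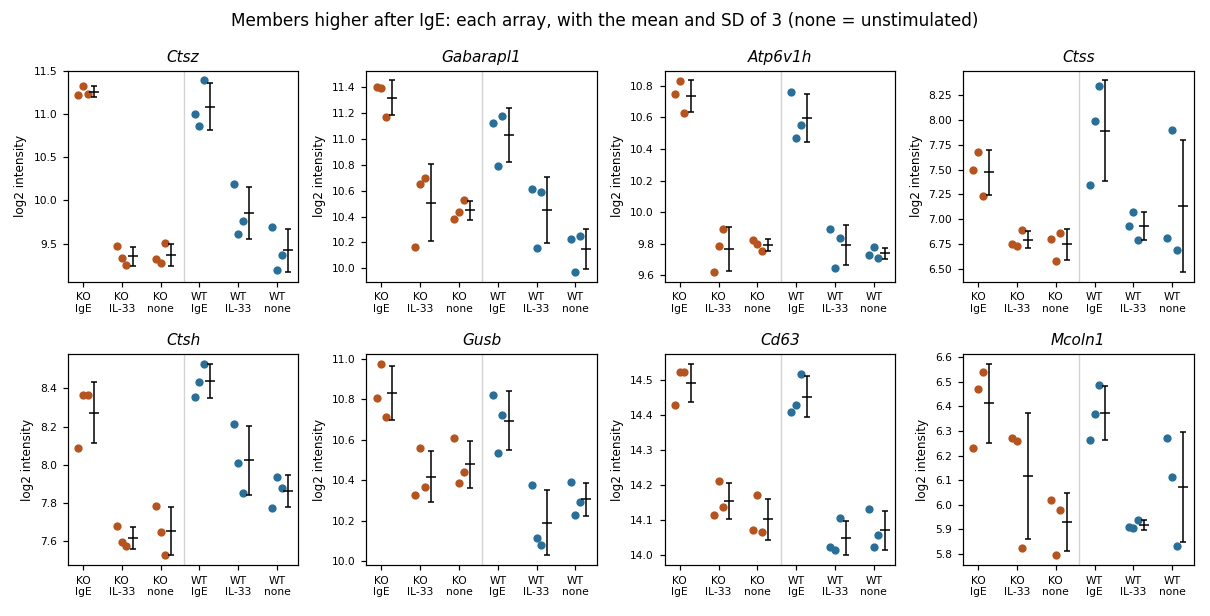
Log2 intensity (y axes) of 8 genes that were higher after IgE, 1 point per array, with the mean and SD of the 3 arrays beside them, in the 6 groups (x axes: KO, ST2KO; none, unstimulated). Ctsz, Atp6v1h, Gabarapl1, Ctsh, Gusb and Cd63 separate the IgE arrays from the unstimulated arrays in both genotypes; for Ctss and Mcoln1 the WT groups overlap, and Mcoln1 was called in ST2KO alone.

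Most glycan and lipid hydrolases passed in neither genotype. Gla, alpha-galactosidase A, measured 4.87, 5.10 and 4.82 after IgE in ST2KO, against 5.44, 5.71 and 5.84 unstimulated, and 5.20, 5.06 and 4.44 after IgE in WT, against 5.65, 5.56 and 5.52 unstimulated. The IgE arrays lay below the unstimulated ones in both genotypes, by -0.73 in ST2KO (SE 0.18, adjusted p = 0.00305) and -0.68 in WT (SE 0.18, adjusted p = 0.00571). Gla was close to background, and 2 of 3 IgE arrays in each genotype were above it, against 3 of 3 in the other groups. Gusb, beta-glucuronidase, measured 10.81, 10.98 and 10.71 after IgE in ST2KO, against 10.61, 10.38 and 10.44 unstimulated, and 10.82, 10.54 and 10.72 after IgE in WT, against 10.39, 10.23 and 10.29 unstimulated. It was higher by 0.35 in ST2KO (SE 0.12, adjusted p = 0.0191) and 0.39 in WT (SE 0.12, adjusted p = 0.0116), with all 4 of its probes called higher in both. The Gusb call was lost in ST2KO without unstimulated array 2 (adjusted p = 0.0751) or 3 (0.0574) or IgE array 2 (0.0928), and in WT without IgE array 1 (0.0557).

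Asah1, acid ceramidase, measured 11.22, 11.43 and 11.43 after IgE in ST2KO, against 10.89, 11.03 and 11.18 unstimulated, a difference of 0.32 (SE 0.10, adjusted p = 0.0157), and 0.09 in WT (adjusted p = 0.525). The 2 Asah1 probes had opposite signs in both genotypes, and the ST2KO call was lost with their mean (adjusted p = 0.45) and without ST2KO unstimulated array 1 (0.0813), ST2KO IgE array 2 (0.0605) or ST2KO IgE array 3 (0.0599). Hexa, Gaa, Glb1, Psap and Lipa, encoding the alpha chain of beta-hexosaminidase, acid alpha-glucosidase, beta-galactosidase, the saposin precursor and acid lipase, were not called. Their differences ran from -0.13 for Glb1 to 0.12 for Gaa in ST2KO, and from -0.03 for Glb1 to 0.25 for Psap in WT. The 8 hydrolases and activators gave 2 higher and 1 lower in ST2KO, and 1 higher and 1 lower in WT, 37.5% and 25%, against 49.2% and 47% of all genes.

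Among the membrane and lipid transfer proteins, the cholesterol exporter fell and the granule tetraspanin rose. Npc1, which moves cholesterol out of the lysosome, measured 10.94, 11.08 and 11.13 after IgE in ST2KO, against 11.89, 12.02 and 12.12 unstimulated, and 10.85, 10.89 and 10.82 after IgE in WT, against 11.85, 11.51 and 11.74 unstimulated. The IgE arrays lay well below the unstimulated ones, 1.94-fold in ST2KO (log2 difference -0.96, SE 0.12, adjusted p = 3.47e-06) and 1.80-fold in WT (-0.85, SE 0.12, adjusted p = 1.46e-05). Of the 4 Npc1 probes, 1 was called lower in ST2KO and 3 in WT, and the highest change of any probe was 0.34 in ST2KO and 0.15 in WT. Npc2, the soluble partner that hands cholesterol to NPC1, gave -0.01 in ST2KO and -0.03 in WT. Cd63 measured 14.43, 14.52 and 14.52 after IgE in ST2KO, against 14.07, 14.17 and 14.07 unstimulated, and 14.41, 14.43 and 14.52 after IgE in WT, against 14.13, 14.02 and 14.06 unstimulated. It was higher by 0.39 in ST2KO (SE 0.09, adjusted p = 0.00101) and 0.38 in WT (SE 0.09, adjusted p = 0.00127), without overlap. Of the 3 Cd63 probes, 3 were called higher in ST2KO and 2 in WT, where the lowest change was 0.06.

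Cln3, a lysosomal membrane protein whose loss causes a neuronal storage disease, measured 9.91, 10.09 and 10.10 after IgE in ST2KO, against 10.66, 10.65 and 10.65 unstimulated, a difference of -0.62 (SE 0.15, adjusted p = 0.00239). In WT it measured 10.22, 10.49 and 9.98 after IgE, against 10.49, 10.93 and 10.66 unstimulated, where the groups met, a difference of -0.46 (SE 0.15, adjusted p = 0.017). The WT call for Cln3 was lost without WT unstimulated array 2 (adjusted p = 0.0914) or WT IgE array 3 (0.1). Mcoln1, the calcium channel mucolipin 1, measured 6.23, 6.47 and 6.54 after IgE in ST2KO, against 6.02, 5.79 and 5.98 unstimulated, a difference of 0.48 (SE 0.14, adjusted p = 0.00763), and 0.30 in WT (adjusted p = 0.0853), where it passed without WT unstimulated array 1 (adjusted p = 0.0392). Lamp1 and Lamp2, the main glycoproteins of the lysosomal membrane, were not called, with -0.09 and 0.15 in ST2KO and -0.07 and 0.13 in WT. Lamp2 had 6 probes that disagreed, from -0.56 to 0.15 in ST2KO and from -0.66 to 0.35 in WT. With p adjusted over all probes in limma, 1 of them was called lower in ST2KO, and 1 higher and 2 lower in WT. The same probe was lower in both genotypes (-0.56, adjusted p = 0.000179 in ST2KO and -0.50, adjusted p = 0.000545 in WT). It and the others annotated to its transcript changed by -0.56, -0.16 and -0.26 in ST2KO, and by -0.50, -0.66 and -0.24 in WT. Those of a different transcript, the brightest probe among them, changed by 0.15 and 0.07 in ST2KO, and by 0.13 and 0.11 in WT. The remaining probe, dim at a mean of 5.04, gave -0.08 in ST2KO and 0.35 in WT.

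In the proton pump, 1 of the 5 listed parts changed in each genotype (20%, against 49.2% of all genes in ST2KO and 47% in WT). Atp6v1h, subunit H of the cytosolic V1 sector, measured 10.75, 10.83 and 10.63 after IgE in ST2KO, against 9.82, 9.80 and 9.75 unstimulated, and 10.76, 10.47 and 10.55 after IgE in WT, against 9.73, 9.78 and 9.71 unstimulated. The groups were far apart in both genotypes, 1.92-fold in ST2KO (log2 difference 0.94, SE 0.11, adjusted p = 1.36e-06) and 1.81-fold in WT (0.86, SE 0.11, adjusted p = 4.32e-06). Atp6v1a and Atp6v1b2, which form the catalytic ring, Atp6v0d1 of the membrane sector and the accessory Atp6ap1 were not called, with changes from -0.13 to 0.30 in ST2KO and from -0.20 to -0.13 in WT. Tfe3, the one transcription factor measured, gave 7.67, 7.42 and 7.92 after IgE in ST2KO, against 7.37, 7.12 and 7.27 unstimulated, a difference of 0.42 (SE 0.16, adjusted p = 0.0425), and 0.01 in WT (adjusted p = 0.962). The Tfe3 call was lost without ST2KO unstimulated array 2 (adjusted p = 0.141) or 3 (0.0799), ST2KO IgE array 1 (0.0865) or 3 (0.191), or ST2KO IL-33 array 3 (0.0505).

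The responses to IgE in ST2KO and in WT share no array, and can be set side by side. Of the 40 genes, 36 changed with the same sign in both genotypes (90%, against 85.1% of all genes tested), and 15 were called in both in the same direction, 7 higher and 8 lower (37.5%, against 39.7% of all genes). A further 5 were called in ST2KO alone and 4 in WT alone. When the difference between the ST2KO and the WT response was itself tested with limma, 0 of the 40 genes passed, against 0% of all genes, with 1 member at an unadjusted p under 0.05. The differences of response ran from -0.32 to 0.65, and for 38 of the 40 genes the 95% interval lay within 1 log2 unit of 0 on either side. Ctsd had the largest, 0.65 (95% interval -0.03 to 1.33, adjusted p = 0.982), followed by Ctsa at 0.49 (0.06 to 0.92, adjusted p = 0.982). Across the 40 genes, the 2 responses had a Pearson correlation of 0.938, against 0.951 over all genes, as a description over genes that are not independent replicates.

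**Figure D4:**
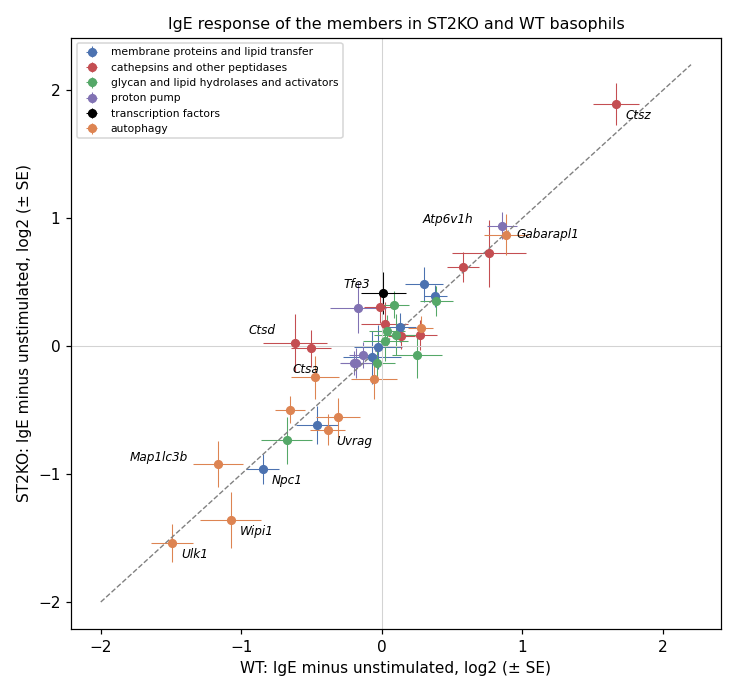
IgE-activated minus unstimulated log2 intensity of the 40 genes in ST2KO (y axis) against WT basophils (x axis), coloured by role, with bars of 1 SE and a dashed line of equal response. Most genes lie along the line, from Ulk1 at -1.54 and -1.50 to Ctsz at 1.89 and 1.67; Ctsd, at 0.03 in ST2KO and -0.62 in WT, lies farthest from it.

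IL-33 called none of the set, and its largest changes, by the brightest probe of each gene, were about 0.4 log2 units. In WT basophils 0 of the 40 genes passed with limma, against 3.78% of all genes, and 6 were at an unadjusted p under 0.05. The changes ran from -0.38 for Becn1 to 0.43 for Ctsz, and each gene's 95% interval lay within 1 log2 unit of 0. The other Ctsz probe rose by 0.55 (SE 0.15, adjusted p = 0.0508 in limma over all probes). By the brightest probes, Npc1 came nearest the threshold. It measured 12.20, 11.91 and 12.27 on the WT IL-33 arrays, against 11.85, 11.51 and 11.74 on the unstimulated ones, a difference of 0.43 (SE 0.12, adjusted p = 0.056) with no overlap. With the replicate number as a block, the Npc1 difference passed (adjusted p = 0.0484 with numbers shared by both genotypes, 0.0272 within genotype), as it did without WT unstimulated array 1 (0.0444) or WT IL-33 array 2 (0.017). The Npc1 probes disagreed: another probe, above background on all 18 arrays, was lower after IL-33 in WT by -0.83 (SE 0.17, adjusted p = 0.00694 over all probes), and higher in ST2KO than in WT after IL-33 by 0.62 (adjusted p = 0.0448). The mean of the 4 probes differed by 0.0021 after IL-33 in WT (adjusted p = 0.996). In ST2KO basophils Npc1 measured 11.82, 11.92 and 12.04 after IL-33, against 11.89, 12.02 and 12.12 unstimulated, and the difference between the ST2KO and the WT response was -0.51 (SE 0.17, adjusted p = 0.204). In ST2KO, 0 of the 40 genes passed with limma, against 0% of all genes, with 0 at an unadjusted p under 0.05 and changes from -0.31 to 0.34. The difference of the IL-33 responses called 0 of the 40, against 1.76% of all genes, with 1 at an unadjusted p under 0.05.

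**Figure D5:**
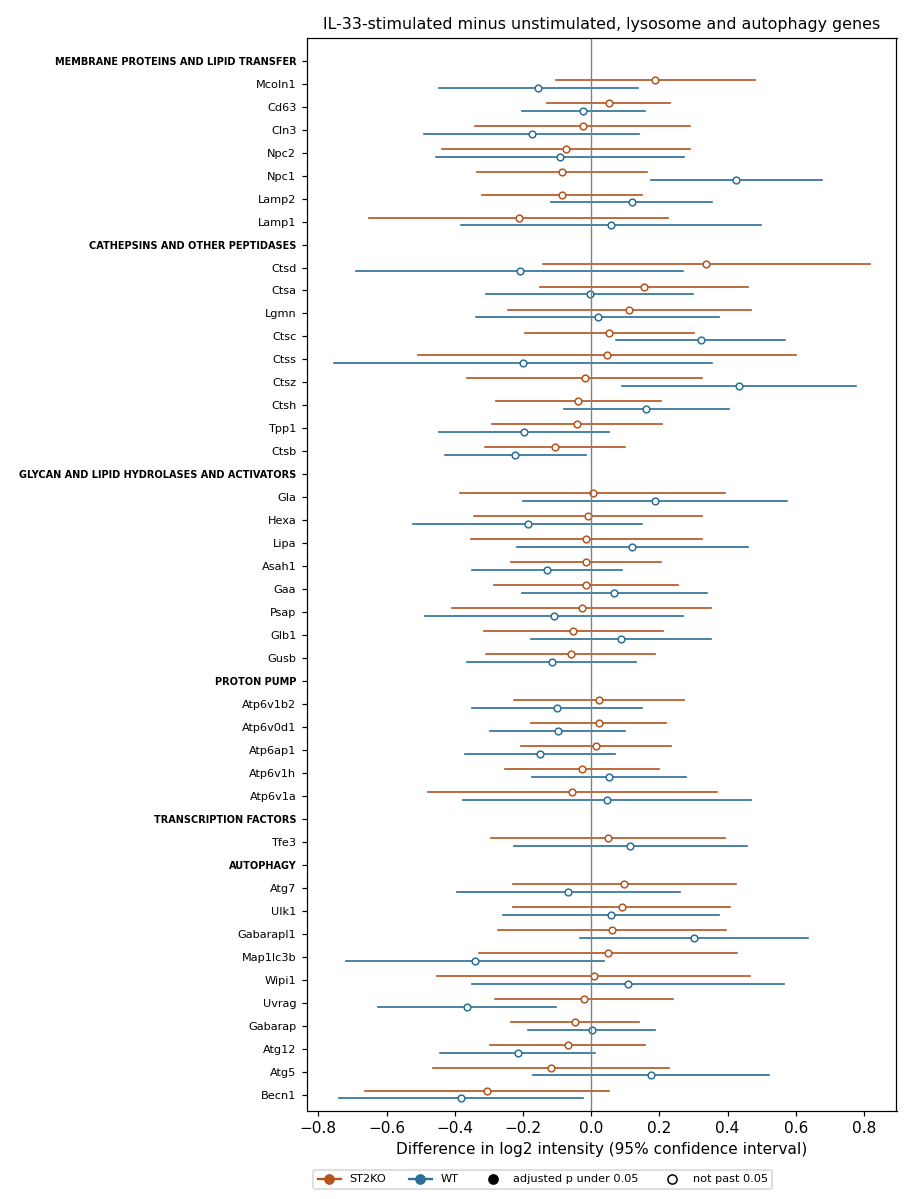
IL-33-stimulated minus unstimulated log2 intensity (x axis, with 95% confidence intervals) of the 40 tested genes, grouped by role (y axis), in ST2KO (orange, upper of each pair) and WT basophils (blue, lower), 3 arrays a group. No point is filled, since none passed an adjusted p of 0.05; the WT changes lie between -0.38 and 0.43.

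Set directly against each other in WT basophils, IL-33 and IgE differed for 17 of the 40 genes (42.5%, against 43% of all genes tested), 7 higher (21.8% of all genes) and 10 lower (21.2%) with IL-33. This comparison shares the IgE arrays with the one above. Ulk1 measured 8.20, 8.26 and 8.04 with IL-33, against 6.26, 6.98 and 6.60 with IgE, a difference of 1.55 (SE 0.15, adjusted p = 3.44e-07). Npc1 was higher with IL-33 by 1.27, Wipi1 by 1.18, Gla by 0.87, Map1lc3b by 0.82, Ctsa by 0.50 and Atg12 by 0.44. Ctsz measured 10.19, 9.61 and 9.76 with IL-33, against 11.01, 10.86 and 11.39 with IgE, a difference of -1.23 (SE 0.16, adjusted p = 1.07e-05). Ctss was lower with IL-33 by -0.96, Atp6v1h by -0.80, Gabarapl1 by -0.58, Gusb by -0.50, Mcoln1 by -0.45, Ctsh by -0.41, Cd63 by -0.40 and Gabarap by -0.28. Ctsb, a cysteine protease that was called in neither IgE comparison, measured 12.84, 12.74 and 12.76 with IL-33, against 12.97, 13.24 and 13.22 with IgE, a difference of -0.36 (SE 0.10, adjusted p = 0.00625). The arrays did not overlap for 18 of the 40 genes, the 17 called ones among them, against 49% of all genes. The Ctsb call was lost without the 3 WT arrays numbered 2 (adjusted p = 0.0574), as was that of Mcoln1 (0.0612). The call of Mcoln1 was also lost without WT IgE array 3 (0.0562), and that of Gabarap without WT IgE array 3 (0.0606) or WT IL-33 array 1 (0.0955). The call of Ctsa was not kept in every alternative either. Its 3 probes disagreed, from -0.89 to 0.50, with 2 called higher over all probes. The 4 Npc1 probes ran from -0.34 to 1.30, with 2 called higher.

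Between genotypes, unstimulated ST2KO and WT basophils differed in 0 of the 40 genes (0% of all genes) and IgE-activated ones in 0 of 40 (0.0201% of all genes), with limma, while 2 and 6 of the 40 were at an unadjusted p under 0.05. Lamp1 had the largest difference in both states, with 12.41, 12.18 and 12.34 in unstimulated ST2KO, against 12.06, 11.45 and 11.81 in unstimulated WT (0.53, SE 0.21, adjusted p = 0.553). After IL-33, 2 of the 40 passed, 1 higher and 1 lower (5%, against 6.07% of all genes, 2.32% higher and 3.75% lower). Ctsh measured 7.68, 7.59 and 7.57 in ST2KO, against 8.21, 8.01 and 7.85 in WT, a difference of -0.41 (SE 0.11, adjusted p = 0.0434). Uvrag measured 8.61, 8.36 and 8.59 in ST2KO, against 8.16, 8.0 and 8.10 in WT, a difference of 0.43 (SE 0.12, adjusted p = 0.0477). The genotypes did not overlap for either gene. Unstimulated, Ctsh had a mean of 7.65 in ST2KO and 7.86 in WT. On the IL-33 arrays, summed macrophage markers were 14416 to 17791 in ST2KO, against 18658 to 26817 in WT. Dendritic cell markers were 683 to 771, against 788 to 1183, and mast cell markers were higher, 13864 to 16538 against 13150 to 13770. The part of these cell types was not tested. With the replicate number as a block, shared by both genotypes or within genotype, neither Ctsh nor Uvrag was called. Both calls were near the threshold: over 30 other ways of processing or leaving out arrays, Ctsh was lost in 15 (adjusted p up to 0.201, without WT IL-33 array 1, and 0.0675 without ST2KO IL-33 array 1) and Uvrag in 19 (up to 0.454, with the mean of its probes, 0.154 without ST2KO IL-33 array 3, and 0.141 without array 1 of that group).

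The 7 genes whose promoters hold the CLEAR core, shown above, were set beside the 25 tested genes whose promoter lacks it. After IgE, 4 of the 7 lay below 0 in ST2KO and 6 of the 7 in WT, against 11 of the 25 in each genotype. Of all 9973 genes tested, 4793 lay above 0 in ST2KO and 4838 in WT. Whether the 7 differ from the 25 or from all genes was not tested. In ST2KO, 1 of the 7 was called higher (Mcoln1) and 2 lower (Cln3, Gla), with a median of -0.02, against 7 higher and 5 lower, with a median of 0.08, among the 25 tested genes whose promoter lacks the core. In WT, 0 were called higher and 4 lower (Cln3, Ctsa, Ctsd, Gla), with a median of -0.46, against 6 higher and 4 lower, with a median of 0.02, among the 25. Over all genes, 22.8% were higher and 26.4% lower in ST2KO, and 22.7% and 24.3% in WT. Of the genes with 2 copies of the core, Gla gave -0.73 in ST2KO and -0.68 in WT, and Ctsa -0.02 and -0.51. Those with 1 copy ran from -0.62 for Cln3 to 0.48 for Mcoln1 in ST2KO, and from -0.62 for Ctsd to 0.30 for Mcoln1 in WT. The WT calls of Cln3, Ctsa and Ctsd were each lost in some alternatives, and the genotypes were not shown to differ for any of the 7, as given above.

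Other genes of the same pathways were taken from wider lists, and their counts after IgE stand beside 49.2% of all genes called in ST2KO (22.8% higher, 26.4% lower) and 47% in WT (22.7% higher, 24.3% lower). Of 14 further proton pump genes, 10 were called higher and 1 lower after IgE in ST2KO, and 7 higher and 1 lower in WT, which is 78.6% and 57.1% called. Atp6v0a1, of the membrane sector, rose by 0.62 in ST2KO and 0.94 in WT, Atp6v1g1 by 0.66 and 0.56, and Atp6v1c1 by 0.64 and 0.47, while Atp6v1d fell by 0.47 and 0.28. Rnasek, a small protein of the pump, rose by 0.40 and 0.49. Of 41 further autophagy genes, 6 were higher and 17 lower in ST2KO, and 7 higher and 21 lower in WT, 56.1% and 68.3% called. Wdr45, a relative of Wipi1, fell by 2.28 and 2.31 on the log2 scale, and Atg10, which joins ATG12 to ATG5, by 1.75 and 1.64. Bcl2l1 and Bcl2, survival proteins that bind Beclin 1, rose by 3.30 and 1.43 in ST2KO and by 2.82 and 1.45 in WT.

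Of 26 further glycan, lipid and nucleic acid hydrolases, 3 were higher and 8 lower in ST2KO, and 2 higher and 12 lower in WT, 42.3% and 53.8% called. Sgsh, a heparan sulfate sulfatase above background on 15 of the 18 arrays, fell by 1.73 in ST2KO and 1.51 in WT on the log2 scale. Smpd1, acid sphingomyelinase, fell by 0.92 and 1.06, Ids, iduronate sulfatase, by 0.66 and 0.92, and Hyal2, a hyaluronidase, rose by 0.75 and 0.74. Of 34 further membrane and sorting genes, 7 were higher and 9 lower in ST2KO, and 9 higher and 7 lower in WT, 47.1% called in each. Slc15a3, a transporter of histidine and small peptides, rose by 2.56 (SE 0.54) in ST2KO and 1.92 (SE 0.54) in WT. Mcoln2, a relative of Mcoln1, rose by 1.83 and 1.29, and Slc17a5, the sialic acid exporter, fell by 0.93 and 1.20. Slc11a1, a metal ion transporter, rose by 1.23 and 0.96, and Lamtor4, of the complex that anchors mTORC1 at the lysosome, rose by 1.03 in WT (0.52 in ST2KO, adjusted p = 0.0671). Of 7 further proteases, 0 were higher and 2 lower in ST2KO, and 1 higher and 2 lower in WT, 28.6% and 42.9% called. Ctsg, the serine protease cathepsin G, fell by 0.41 and 0.44. Ctsk, cathepsin K, rose by 1.44 in WT (SE 0.45; 0.65 in ST2KO, adjusted p = 0.247), Ctsf, cathepsin F, fell by 0.77 in ST2KO (-0.53 in WT, adjusted p = 0.108), and Ctse, cathepsin E, fell by 0.36 in WT (-0.22 in ST2KO, adjusted p = 0.127).

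Of 24 genes that regulate TFEB and the nutrient kinase complex mTORC1, 2 were higher and 12 lower in ST2KO, and 2 higher and 9 lower in WT, 58.3% and 45.8% called. Castor2, an arginine sensor relative, fell by 2.25 in ST2KO and 1.68 in WT on the log2 scale, Ddit4, a stress-induced inhibitor of mTORC1, by 1.57 and 1.42, Sesn1, a leucine sensor relative, by 1.22 and 1.05, and Nprl3, part of a complex that restrains mTORC1, by 1.18 and 1.25. In WT after IL-33, 2 of the 41 autophagy genes were called (4.88%, against 3.78% of all genes), Sqstm1, the cargo receptor p62, at 0.80 (SE 0.12) and Bcl2l1 at 0.77 (SE 0.15), and 1 of the 24 regulators (4.17%), Sesn1, at 0.44 (SE 0.12, adjusted p = 0.0472). After IL-33, Sqstm1 and Bcl2l1 were lower in ST2KO than in WT, by -0.73 and -1.0. Sesn1 was thus called lower after IgE and higher after IL-33 in WT, each against the same unstimulated arrays. The IL-33 call lay near the threshold, and whether it holds in other fits was not tested.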

How the data were processed

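The deposited table holds 1 bead signal per probe and array: per the file headers it is a non-normalised intensity with a detection p-value, and its lowest values (76.2 to 83.7) show that background was not subtracted. The authors' deposited processed values are log2, with an equal median (4.287) on every array; no source used here says how they were made, and they served as an alternative. Signals were corrected and quantile-normalised with neqc (limma 3.58.1, R 4.3.3, offset 16). Probes with a detection p under 0.05 on 3 or more of 18 arrays were kept (18078 of 45281). Gene names came from the platform annotation (34885 probes with 1 symbol, 18 with several, 10378 with none), updated through RefSeq, which left 15239 kept probes with a single name. Where several probes matched 1 gene, the brightest represented it.

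Group means were fitted jointly over the 18 arrays in limma, with moderated tests and Benjamini-Hochberg adjustment over 9973 genes. This fit was first tried on simulated gene values with independent arrays. The simulation covered neither the normalisation, the probe filter and the probe choice, nor arrays that deviate together. Precision is limited by the number of arrays, and the median 95% interval reached 0.316 log2 units to either side of its difference. No pair of arrays held identical values. Arrays with the same replicate number deviated together (each of 3 correlations over 0.1) for WT unstimulated with IgE (0.225 to 0.308) and with IL-33 (0.178 to 0.591), WT IgE with IL-33 (0.135 to 0.436) and ST2KO unstimulated with IgE (0.119 to 0.206), a pairing from the data and the numbers in the labels. Fits with the number as a block were alternatives, beside other corrections, filters, probe rules, weights and leaving out arrays. Values per array were given for genes called in a comparison, by role and size. From each wider list the called genes with the largest IgE changes, up to 4 a genotype, were named. The members and lists were chosen with earlier results of these data known. Promoters were searched on both strands for listed motifs, including TGTTTAC, a FOXO motif added after the data were seen and found in 0 of 35 promoters of the set, against 4.05% of all.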

Additional observations from a re-analysis of the deposited data

How the results depend on the processing

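Over 30 alternatives, 18 of which left out 1 array each, no called change of the 40 genes turned its direction. The genes named from the wider lists were not followed singly in these alternatives. The IgE counts stayed within 1.5 times of 20 in ST2KO (16 to 20 when leaving out single arrays, 18 to 20 otherwise) and 19 in WT (14 to 20, and 15 to 21), and so did the 17 of IL-33 minus IgE (15 to 18, and 15 to 19). Called in every alternative were 15 of the 20, 11 of the 19 and 13 of the 17. The count of 0 for IL-33 in WT became 1 without background correction, with a detection p under 0.01, with an offset of 50, with trend and robust variance and with either replicate block, 3 with array weights, and 0 to 1 when leaving out single arrays. The count of 2 for ST2KO minus WT after IL-33 became 0 with the authors' processed values, with the compared groups alone and with either replicate block, 1 without a filter on dim probes and without the 3 WT arrays numbered 2, and 0 to 2 when leaving out single arrays. At most it rose to 3, in an alternative that left out no single array. The count of 0 for the difference of IL-33 responses became 1 with array weights. The causes were not tested. The replicate block (consensus correlation 0.128 within genotype) changed no other count: 20, 19 and 17 stood. Over all genes, IL-33 in WT called 377, but 197 with the compared groups alone and 641 with array weights, with 79.6%, 93.9% and 66.1% of the calls higher. ST2KO minus WT after IL-33 called 605, but 1347 with array weights, with 38.2% and 50.4% higher, and 27.2% higher with the compared groups alone. Without a filter, 19057 genes were tested and the share called after IgE was 25.2% in ST2KO and 23.7% in WT. A slide term was not run, since neither the files nor the labels give a slide.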
